A study of Mus musculus with 6 samples.

Results

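The replication-dependent histone genes encode the core histones H2A, H2B, H3 and H4 and the linker histone H1 that package newly copied DNA. They were chosen as every gene whose symbol begins with Hist1h, Hist2h, Hist3h or Hist4h, which gave 70 of the 38483 genes in the deposited table. They are grouped below by the histone named in the symbol, into 6 H1, 20 H2A, 19 H2B, 12 H3 and 13 H4 genes. Among them, Hist1h2aj and Hist3h2bb-ps are annotated as pseudogenes and had 0 counts in every library. The study measured mRNA in splenic CD4+CD62L+ T cells from IL-17A-/- knockout mice and from IL-17A+/+ wild-type mice, both on the B10.RIII background. All cultures were polarized toward the Th17 state for 3 days. The cytokines added were IL-6 (10 ng/ml), TGF-β (1 ng/ml) and IL-23 (10 ng/ml), and the antibodies anti-IL-4 and anti-IFN-γ (10 µg/ml of each) blocked those cytokines. Replicates, 3 per genotype and called biological in the labels, are numbered 1 to 3. The labels used here give neither the age of the mice nor whether animals were pooled.

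Replication-dependent histone genes are switched on as cells enter S phase, when new DNA needs an equal supply of histones. Their mRNAs are the animal mRNAs that normally lack a poly(A) tail: they are cut just after a short stem-loop, which the stem-loop binding protein SLBP holds from processing through translation to decay. Some of these genes also yield polyadenylated transcripts that run past the stem-loop. Replication-independent variants such as H3.3 and H2A.Z are made throughout the cell cycle from ordinary polyadenylated mRNAs. The libraries came from a modified TruSeq mRNA protocol, per the labels, and kits of that name select polyadenylated RNA.

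The stem-loops of 6 of the histone genes measured in every or nearly every library show the element that the family shares and how the classes differ in it. They were read from GENCODE M21 transcripts on GRCm38, whose IDs match the deposited table, and are given on the transcript strand with 5 bases on each side. Capitals mark the stem-loop of 16 bases, and the coordinates are those of the capitals.
Hist1h1c, chr13:23739512-23739527, plus strand: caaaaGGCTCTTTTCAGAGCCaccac
Hist3h2a, chr11:58955172-58955187, plus strand: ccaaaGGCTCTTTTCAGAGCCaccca
Hist1h2be, chr13:23585531-23585546, minus strand: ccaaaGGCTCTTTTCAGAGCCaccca
Hist4h4, chr6:136803998-136804013, minus strand: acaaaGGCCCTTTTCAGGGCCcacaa
Hist1h4i, chr13:22040966-22040981, minus strand: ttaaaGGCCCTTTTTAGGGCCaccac
Hist2h4, chr3:96262939-96262954, minus strand: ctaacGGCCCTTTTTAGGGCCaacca
The H1, H2A and H2B elements shown are identical within the capitals, and the H4 elements have a different stem. Across the family, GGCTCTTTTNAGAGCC was found in 29 of the 30 genes of other classes with a stem-loop and in 0 of the 12 H4 genes with one.

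Histone mRNA was scarce in all 6 libraries. Levels are given as CPM, a gene's estimated counts scaled to the TMM-adjusted size of its library. All 70 genes together reached 20.8, 36.6 and 33.4 CPM in knockout libraries 1, 2 and 3, against 27.1, 38.4 and 35.0 CPM in wild-type libraries 1, 2 and 3. Library 1 was the lowest of each genotype, and the genotypes overlapped. Knockout cells averaged 30.3 ± 8.33 CPM, against 33.5 ± 5.79 CPM for the wild type (SD, n = 3 each). Library totals ran from 47335736 to 49743762 estimated counts, so a count of 0 allows up to 3 counts, or 0.0603 to 0.0634 CPM where 1 read is 1 count. In transcripts of 400 to 700 nt, the length of many histone mRNAs, 1 read carried 1.51 to 1.52 estimated counts, which puts the floor there at 0.0911 to 0.0963 CPM. Both floors use library totals before the TMM adjustment. After it, 3 counts were 0.0676 CPM in wild-type 2. These floors and all counts below carry counting error, and the labels do not say that replicate cultures came from separate animals, so p-values measure the spread between these samples.

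**Figure D1:**
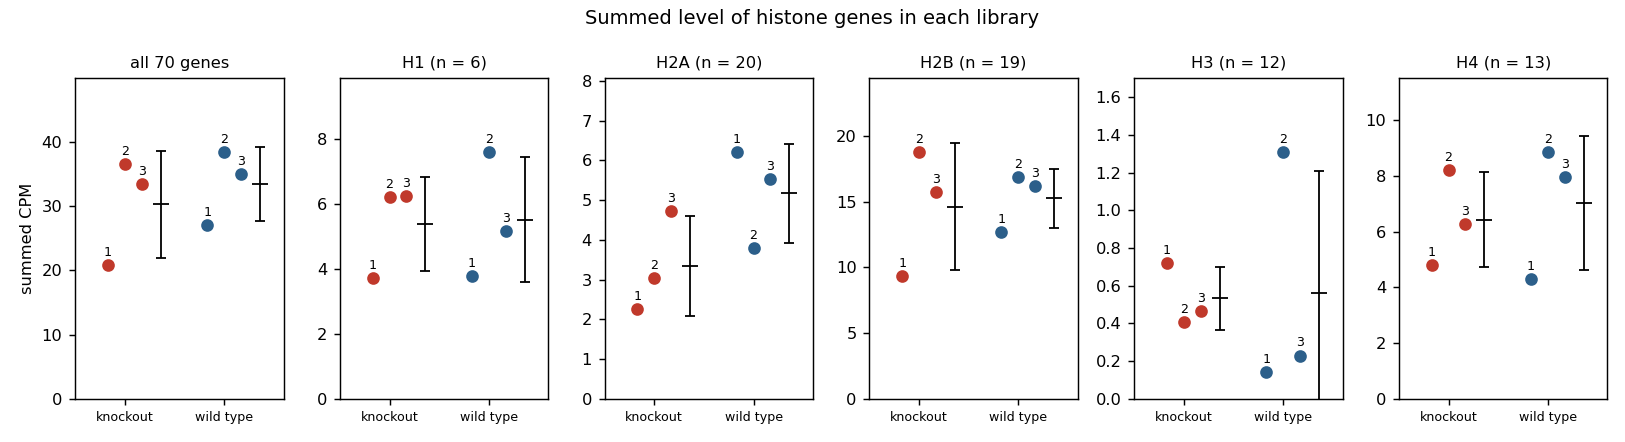
Summed level (CPM, vertical axis) of all 70 histone genes and of each class in the 3 knockout and 3 wild-type libraries. Points are single libraries with their replicate number, and bars are the mean ± SD of each genotype, cut off at 0. The genotypes overlap in every panel, and H2B has the highest sums, from 9.33 to 18.7 CPM.

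H2B genes supplied 46.8% of the histone CPM over the 6 libraries. Their sum was 9.33, 18.7 and 15.8 CPM in knockout libraries, against 12.7, 16.9 and 16.2 CPM in wild-type libraries. H4 genes supplied 21.1%, with 4.81, 8.20 and 6.25 CPM in knockout libraries and 4.29, 8.84 and 7.94 CPM in wild-type libraries. H1 genes supplied 17.1%, with 3.71, 6.20 and 6.23 CPM in knockout libraries and 3.78, 7.58 and 5.16 CPM in wild-type libraries. In all 3 classes library 1 was the lowest of its genotype. H2A genes supplied 13.4%, with 2.27, 3.05 and 4.72 CPM in knockout libraries and 6.20, 3.79 and 5.54 CPM in wild-type libraries. H3 genes, although 12 in number, supplied 1.71%, between 0.144 and 1.31 CPM in any library. These shares are of counts and are not corrected for transcript length.

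A few genes carried the total. Hist2h2be, Hist1h2bc, Hist4h4, Hist1h1c and Hist3h2a together made 79.3% of the histone CPM. The 12 genes that passed the low-count filter and were tested made 91.0%, and the other 58 made 9.05%. By cluster, the 56 Hist1 genes on chromosome 13 gave 46.2%, the 10 Hist2 genes on chromosome 3 gave 22.7%, the 3 Hist3 genes on chromosome 11 gave 13.5%, and the single Hist4 gene on chromosome 6 gave 17.7%.

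Whether loss of IL-17A changed any histone mRNA was tested by edgeR's quasi-likelihood test over 15121 genes with Benjamini-Hochberg adjustment. This main fit had no replicate block. The log2 changes, standard errors and intervals below come from it unless another fit is named. Of the 12 histone genes tested, 0 passed an adjusted p of 0.05, and each had an adjusted p of 0.9999. The test called 0 of all genes (0.0%), so this count sets the histone genes apart from nothing. At an unadjusted p under 0.05 the counts were 0 of 12 histone genes and 253 of all genes (1.67%). With the replicate number as a block they were 0 of 12 and 1471 of all genes (9.73%). DESeq2 with the same block, which called 374 of all genes (2.47%), likewise called 0 of the 12. Knockout values were lower for 8 genes and higher for 4, with a median log2 change of -0.14, against 0.01 over all genes tested. By class the median was -0.06 for the single H1 gene, -1.83 for 2 H2A genes, -0.0043 for 6 H2B genes and -0.14 for 3 H4 genes. The medians of the log2 ratios within pairs of the same number were -0.10, -0.07 and -0.09 for pairs 1, 2 and 3, against 0.02, 0.00 and -0.01 over all genes.

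**Figure D2:**
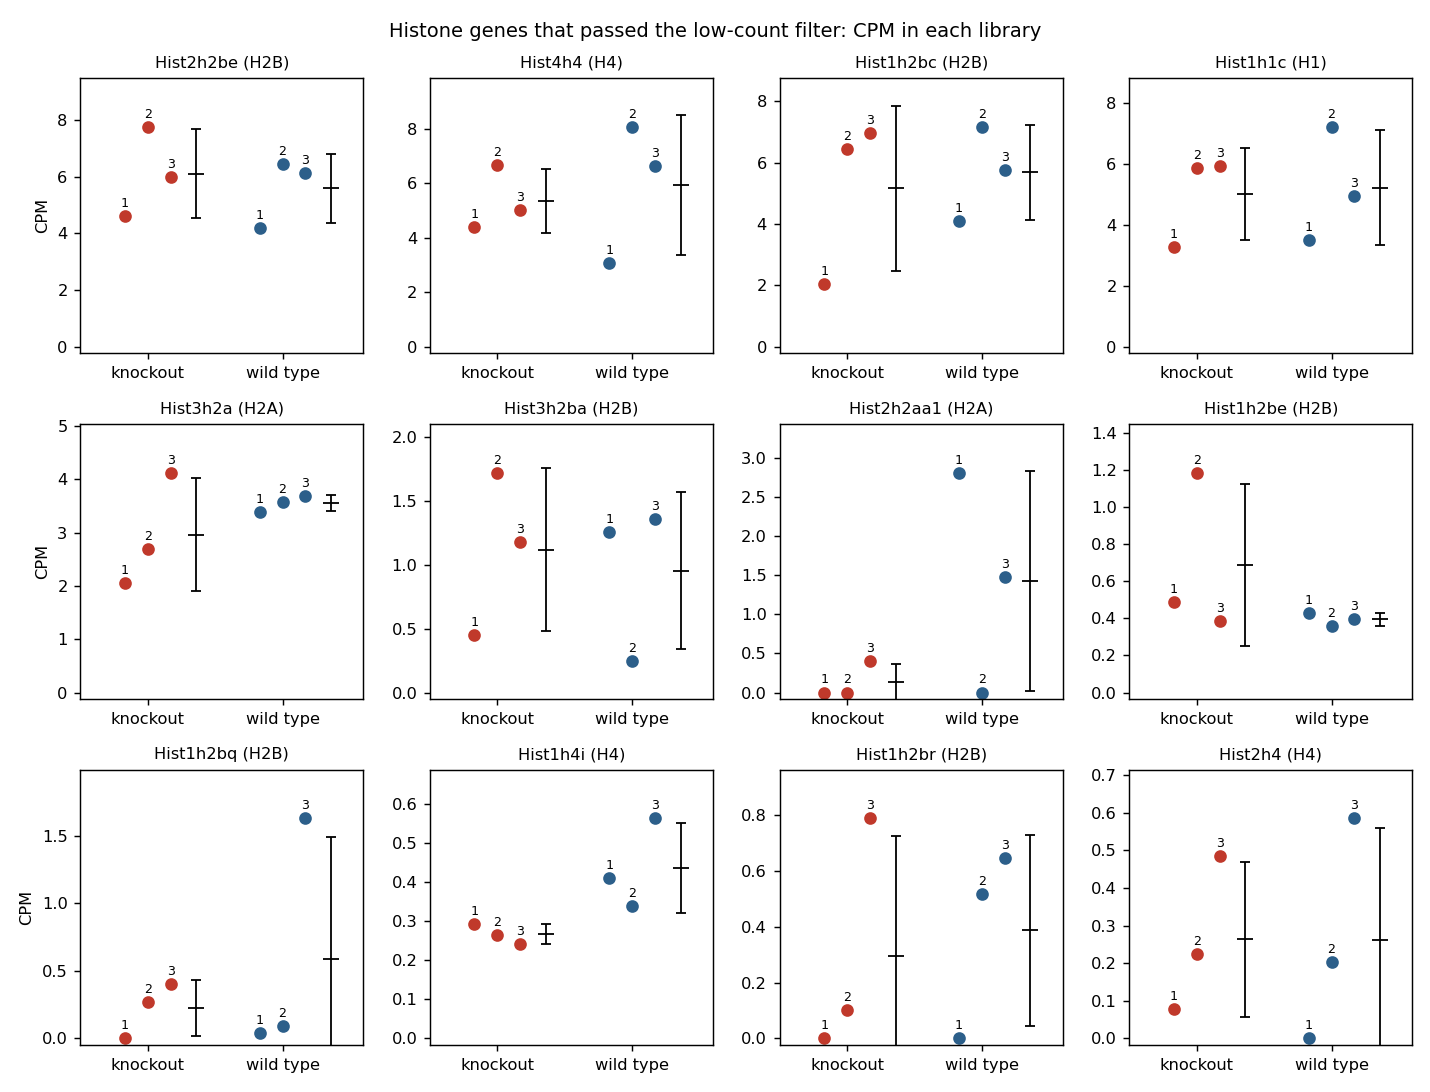
Level (CPM, vertical axis, a separate scale in each panel) of the 12 histone genes that passed the low-count filter, in the 3 knockout and 3 wild-type libraries. Points are single libraries with their replicate number, and bars are the mean ± SD of each genotype, cut off at 0. Hist1h4i is the one gene whose genotypes do not overlap, with knockout libraries at 0.243 to 0.293 CPM and those of the wild type at 0.338 to 0.564 CPM.

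The one linker histone tested was Hist1h1c (ENSMUSG00000036181, chr13:23738807-23740366), which encodes histone H1.2. It stood at 3.27, 5.85 and 5.93 CPM in knockout libraries, against 3.49, 7.22 and 4.95 CPM in wild-type libraries. The genotypes overlapped, with library 1 low in both. Its log2 change was -0.06 ± 0.38 (SE; 95% interval -0.96 to 0.85). The other 5 H1 genes had at most 10 counts in a library. Among all 58 genes below the filter, 3 had genotypes that did not overlap, 2 with knockout above and 1 below. Of all 6748 genes below the filter with a count, 2.03% had every knockout library above every wild-type library and 2.22% had every one below, and 44 of the 58 histone genes had a count. The 3 are H1 genes and were picked out here after their values were seen. Hist1h1e had 6, 7 and 7 counts in knockout libraries, against 5, 0 and 4 in wild-type libraries. Hist1h1d had 7, 6 and 4 counts in knockout libraries, against 0, 0 and 1 in wild-type libraries. Hist1h1a went the other way, with 1 count in each knockout library, against 5, 10 and 4 in wild-type libraries. These counts were too low to enter the test.

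Of the H2A genes, Hist3h2a (ENSMUSG00000078851, chr11:58954685-58956674) had the highest mean CPM, at 2.05, 2.70 and 4.13 CPM in knockout libraries, against 3.39, 3.59 and 3.70 CPM in wild-type libraries. The knockout libraries spread on both sides of the narrow wild-type range. Its log2 change was -0.26 ± 0.35 (SE; 95% interval -1.09 to 0.56). Hist2h2aa1 (ENSMUSG00000063954, chr3:96245538-96246115) had 0, 0 and 20 counts in knockout libraries, against 137, 0 and 71 in wild-type libraries. It was at 0 in 3 of 6 libraries, in both genotypes, and its log2 change of -3.39 had a standard error of 2.02 and an unadjusted p of 0.138 in edgeR. Its near-identical neighbour Hist2h2aa2 was at 0 counts in every library, so how reads were shared between the copies cannot be told from the table. The other 18 H2A genes did not reach the filter, and 8 of them were at 0 throughout.

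Among the H2B genes, Hist2h2be (ENSMUSG00000068854, chr3:96221121-96223738) had 4.59, 7.75 and 5.97 CPM in knockout libraries, against 4.17, 6.45 and 6.12 CPM in wild-type libraries. The ranges overlapped almost fully. The log2 change was 0.13 ± 0.31 (SE; 95% interval -0.59 to 0.85). Hist1h2bc (ENSMUSG00000018102, chr13:23684199-23692488) had 2.05, 6.44 and 6.98 CPM in knockout libraries, against 4.11, 7.17 and 5.77 CPM in wild-type libraries. Knockout 1 was the lowest library, and the log2 change was -0.14 ± 0.49 (SE; 95% interval -1.29 to 1.01). Per kilobase of transcript, Hist1h2bc was the highest histone gene of all, at 7.01 ± 3.67 CPM per kb in knockout cells, against 7.73 ± 2.08 CPM per kb in wild-type cells (SD, n = 3 each). The next, Hist1h1c, had 3.22 ± 0.977 CPM per kb in knockout and 3.35 ± 1.20 CPM per kb in wild-type cells.

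Hist3h2ba (chr11:58948911-58949532) was uneven within both genotypes, at 0.450, 1.72 and 1.17 CPM in knockout libraries, against 1.25, 0.248 and 1.36 CPM in wild-type libraries. Knockout 1 and wild-type 2 were low. Hist1h2be (chr13:23583742-23621124) had 0.489, 1.19 and 0.385 CPM in knockout libraries, against 0.431, 0.361 and 0.397 CPM in wild-type libraries, with only knockout 2 apart from the rest. Its log2 change of 0.79 ± 0.60 (SE) was the largest upward estimate among the 12, with an unadjusted p of 0.228 in edgeR. Most of its counts lay in a transcript of 2099 nt annotated as non-coding, at 25.0, 40.8 and 11.7 estimated counts in knockout libraries and 20.8, 15.9 and 18.8 in wild-type libraries. The value therefore describes the locus more than the H2B message.

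The last H2B genes tested, Hist1h2bq and Hist1h2br, were added here outside the rule for named genes. Only 2.75% or less of the 50-base windows in Hist1h2bq transcripts were unique to the gene, and 11.6% or less in Hist1h2br. Each of their transcripts shared windows with 14 other genes, so counts can be split between the 2 genes and with others. The sum of Hist1h2bq and Hist1h2br was 0, 18 and 59 counts in knockout libraries, against 2, 27 and 109 in wild-type libraries. Library 1 was lowest and library 3 highest in both genotypes.

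The H4 genes tested were Hist4h4, Hist1h4i and Hist2h4. Hist4h4 (ENSMUSG00000096010, chr6:136801553-136804431) had 4.40, 6.67 and 5.02 CPM in knockout libraries, against 3.08, 8.07 and 6.62 CPM in wild-type libraries. The knockout range lay inside the wild-type range, and the log2 change was -0.14 ± 0.40 (SE; 95% interval -1.09 to 0.80). Hist1h4i (ENSMUSG00000060639, chr13:22040816-22041352) had 0.293, 0.266 and 0.243 CPM in knockout libraries, against 0.411, 0.338 and 0.564 CPM in wild-type libraries, from 12 to 27 counts in any library. Every knockout library was below every wild-type library, as in 474 of all genes tested (3.13%). The log2 change was -0.71 ± 0.52 (SE; 95% interval -1.95 to 0.54), with an unadjusted p of 0.220 in edgeR. Hist2h4 (chr3:96261704-96263311) had 0.0782, 0.225 and 0.486 CPM in knockout libraries, against 0, 0.203 and 0.585 CPM in wild-type libraries, and the same numbers were high and low in both genotypes. No histone gene tested had all knockout libraries above all wild-type libraries, against 455 of all genes (3.01%).

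No H3 gene reached the filter. Hist2h3c2 was the single H3 gene with a count in all 6 libraries, at 12, 6 and 10 counts in knockout libraries, against 1, 9 and 8 in wild-type libraries. Hist1h3c had 8, 0 and 0 counts in knockout libraries, against 0, 31 and 0 in wild-type libraries. These values left no H3 level that could be compared by genotype at this depth.

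Counts of the 58 genes below the filter were low and uneven between libraries. Of these, 14 were at 0 counts in every library and 44 had a count in at least 1. Just 19 reached 10 counts anywhere, 12 of them in 1 library and 7 in 2 libraries. Hist1h2bl had 0, 1 and 0 counts in knockout libraries, against 108, 0 and 0 in wild-type libraries. Hist1h2bj had 22, 0 and 0 counts in knockout libraries, against 0, 29 and 0 in wild-type libraries. Hist1h2bm, with 16, 0 and 0 counts in knockout libraries and 0, 29 and 0 in wild-type libraries, was high and at 0 in the same libraries as Hist1h2bj. Summed over the 12 untested H2B genes with transcripts under 700 nt, counts were 73, 49 and 0 in knockout libraries, against 124, 88 and 2 in wild-type libraries. The replicate 3 libraries held almost none. These genes, Hist2h3c2 and Hist1h3c were named after their values were seen. The summed counts of Hist1h2bq and Hist1h2br ran the other way over the replicate numbers, at 0, 18 and 59 in knockout libraries and 2, 27 and 109 in wild-type libraries. H2B genes share sequence, and how reads were split among them was not tested. Neither order of libraries can therefore be read as the level of single genes.

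**Figure D3:**
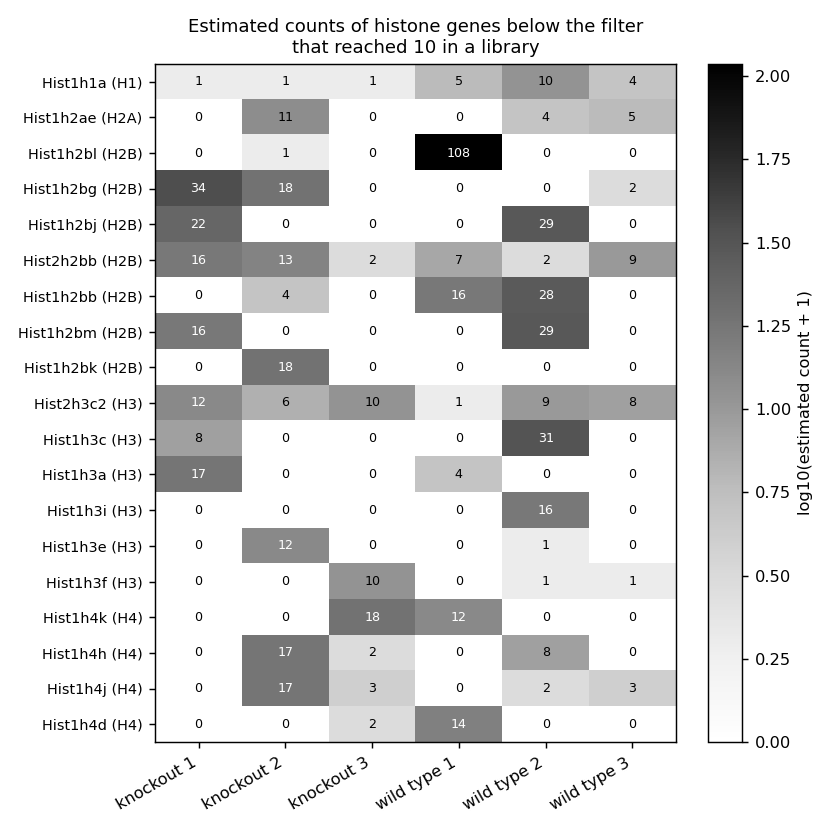
Estimated counts of the 19 histone genes that stayed below the filter but reached 10 counts in some library. Rows are genes with their class, columns are the 3 knockout and 3 wild-type libraries, numbers are counts, and shading is log10 of the count plus 1. Most cells are at 0, and the highest is 108 for Hist1h2bl in wild-type 1.

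The genes that passed the filter were compared with the others by their annotated 3′ ends. The stem-loop was searched as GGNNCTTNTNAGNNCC, a stem of 6 base pairs and a loop of 4, on the transcript strand. It was found in 42 of the 64 histone genes with a GENCODE sequence at the deposited position. Over all 141767 GENCODE transcripts it was found in 0.222% on the transcript strand and in 0.180% on the opposite strand. In 20 genes the annotated transcript ended within 100 nt of the stem-loop, and 0 of these were tested. In 22 genes it ran on for more than 100 nt, and 7 of these were tested. The 22 genes of the longer kind made 53.6% of the histone CPM, and the 20 of the shorter kind made 2.91%. In the other 22 with sequence no match was found, and 4 of these were tested, namely Hist2h2be, Hist1h2bc, Hist1h2bq and Hist1h2br. The 22 genes with no match include 9 of the 14 that were at 0 in every library. Some of the 22 have short annotated transcripts, such as 381 nt in Hist1h2bl and 393 nt in Hist1h2an. A stem-loop past the annotated end was outside the search, so no match does not mean that a gene lacks one. Where a length differs between GENCODE and the deposited table, as for Hist1h2bc, the sequence need not be the one the authors counted.

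**Figure D4:**
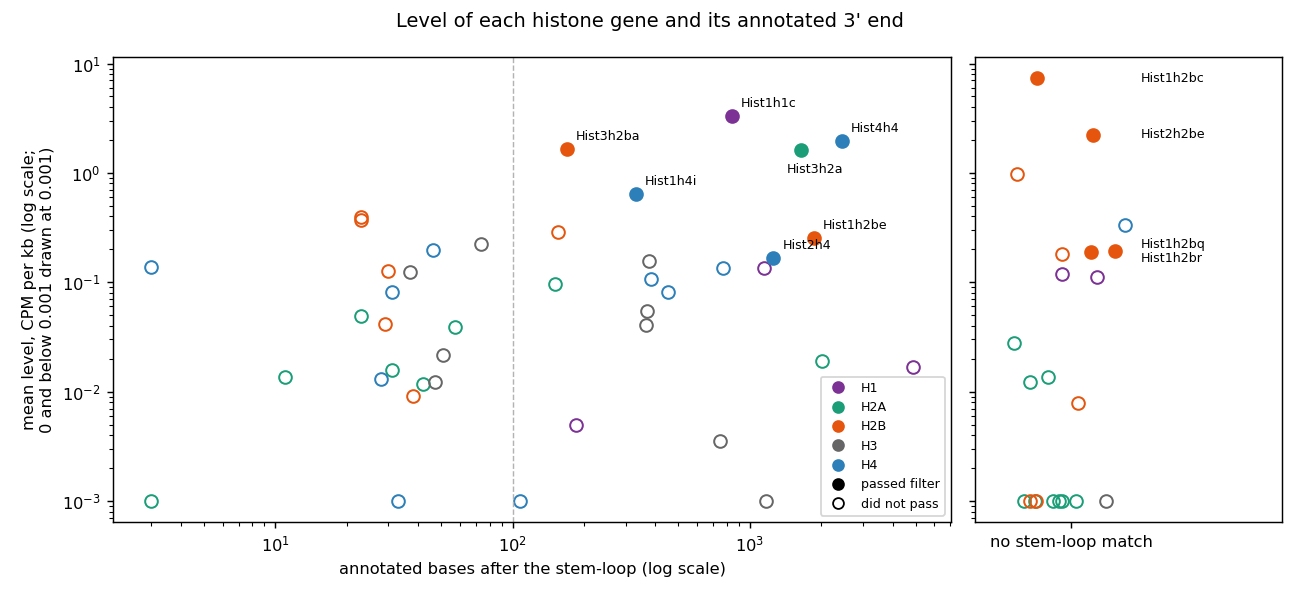
Mean level over the 6 libraries (CPM per kb, vertical log axis; values under 0.001, 0 included, are drawn at 0.001) of the 64 histone genes with sequence. The horizontal log axis gives annotated bases after the stem-loop, with a dashed line at 100 nt, and genes with no match stand in the right panel. Filled points passed the low-count filter; 7 of them lie right of the dashed line and 4 in the right panel.

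The stem-loop lay 840 nt before the annotated end in Hist1h1c, 1643 nt in Hist3h2a and 2445 nt in Hist4h4. In Hist1h2be it lay 1861 nt before the end of the coding transcripts, but most counts of that gene were in its non-coding transcript, which has no match. The hexamer AATAAA, the canonical poly(A) signal, was in the last 40 nt of a transcript in 9 of the 11 tested genes with sequence and in 6 of the 53 others with sequence. In Hist1h2be it was in the non-coding transcript alone. It was found in 39.3% of 58797 protein-coding transcripts. The longest deposited transcript had a median of 1799 nt in tested genes and 490 nt in the others. A length above 700 nt was found for 9 of 12 tested and 15 of 58 other genes. The genes also differed in how much of their sequence is their own: a median of 77.9% of 50-base windows was unique to the gene in tested genes, against 42.0% in the others. Length, poly(A) signal and uniqueness all differed between tested and other genes, and the part of each in the level was not tested. The filter that separates the groups used counts not corrected for transcript length.

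Replication-independent variants differed widely in level per length. H3f3a, which encodes H3.3, had 508, 437 and 573 CPM per kb in knockout libraries, against 415, 409 and 427 CPM per kb in wild-type libraries. The 12 replication-dependent H3 genes summed to 0.221 to 2.11 CPM per kb, so H3f3a was 194 to 1873 times higher within a library. Such ratios, here and for H2A and H1 below, compare the RNA recovered in these libraries. The usual replication-dependent mRNA has no poly(A) tail, so they are not ratios of mRNA in the cells. The part of poly(A) selection in them was not tested. H3f3b, the second H3.3 gene, had 217 to 272 CPM per kb, 113 to 983 times the H3 sum. Cenpa, the centromeric H3 variant, had 171 to 356 CPM per kb.

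Among H2A variants, H2afy, which encodes macroH2A1, had 236 to 489 CPM per kb, 61.7 to 234 times the sum of the 20 H2A genes, which was 1.35 to 6.57 CPM per kb. H2afz, which encodes H2A.Z, had 41.3 to 198 CPM per kb, and H2afv, the second H2A.Z gene, had 112 to 200 CPM per kb. H2afx, which encodes the H2A.X of DNA damage signalling, was closer to that sum, at 15.3 to 31.0 CPM per kb or 2.38 to 16.1 times it. H2afj had 4.05 to 7.09 CPM per kb, and H2afy2 had at most 0.219 CPM per kb, below the H2A sum in every library. H1f0, the H1.0 linker histone of resting and differentiated cells, had 17.7 to 36.4 CPM per kb, 5.54 to 8.77 times the summed H1 genes. H1fx, another linker variant, had at most 0.361 CPM per kb, below the H1 sum of 2.56 to 5.11 CPM per kb.

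None of the 10 variant genes tested was called in edgeR, and 0 were in DESeq2 with the block, where 1 had no adjusted p. Over all genes tested edgeR called 0 and DESeq2 with the block 374 (2.47%). For the variants, this count is therefore no distinction. The variants had a median log2 change of 0.13, with 6 higher and 4 lower in knockout cells. H3f3a was at 371, 360 and 415 CPM in knockout libraries, against 302, 323 and 316 CPM in wild-type libraries. Every knockout library was above every wild-type library, as in 1 of the 10 variants and 455 of all genes tested (3.01%). The log2 change of H3f3a was 0.28 ± 0.12 (SE). Its unadjusted p was 0.0579 in edgeR, or 0.0403 with the block, and its adjusted p was 0.201 in DESeq2 with the block. H2afy had 327, 679 and 659 CPM in knockout libraries, against 545, 625 and 650 CPM in wild-type libraries, with knockout 1 low.

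The factors that make and end histone mRNA were read from the same fits. Of 19 genes listed for histone mRNA 3′ end processing and turnover, 18 were tested, with 0 called in edgeR and in DESeq2 with the block. Over all genes tested the 2 fits called 0 and 374 (2.47%), so this count sets the list apart from nothing. Knockout values were higher for 12 and lower for 6, with a median log2 change of 0.03. Slbp had 69.8, 66.8 and 65.3 CPM in knockout libraries, against 60.8, 62.9 and 59.1 CPM in wild-type libraries. The genotypes did not overlap, with knockout above, and the log2 change was 0.14 ± 0.11 (SE; unadjusted p 0.245 in edgeR). This held for 1 of the 18 genes, and for 455 of all genes tested (3.01%). Lsm10, a subunit of the U7 particle that directs the cut, had 22.1, 22.2 and 21.3 CPM in knockout libraries, against 24.9, 26.1 and 18.9 CPM in wild-type libraries. Its partner Lsm11 had 14.0, 17.6 and 17.1 CPM in knockout libraries, against 16.0, 14.8 and 21.9 CPM in wild-type libraries. Npat, the coactivator of histone gene transcription, had 23.7, 17.3 and 29.6 CPM in knockout libraries, against 19.1, 18.3 and 32.8 CPM in wild-type libraries, and library 3 was the highest of each genotype. Zfp473, whose human counterpart binds the U7 particle, had the smallest p of the list, with a log2 change of -0.49 ± 0.31 (SE; unadjusted p 0.157 in edgeR), and wild-type 2 stood alone at 15.4 CPM among values of 7.08 to 8.75 CPM. Srrt, Ncbp1 and Ints3, the most abundant of the list, had log2 changes of -0.0043, 0.03 and 0.02. Slbp, Lsm10, Lsm11, Npat and the variants other than H3f3a, H3f3b and H2afy were named for their roles and not by the rule.

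Histone chaperones and the enzymes that acetylate new histones gave 0 calls among 16 genes in edgeR and in DESeq2 with the block. Over all genes tested the 2 fits called 0 and 374 (2.47%). The median log2 change of the 16 was 0.09, with 12 genes higher in knockout cells. Hat1, the catalytic subunit of the acetyltransferase that modifies newly made H4, had 76.0, 53.3 and 56.9 CPM in knockout libraries, against 54.6, 53.6 and 43.1 CPM in wild-type libraries. Knockout 1 was the highest, and the log2 change was 0.30 ± 0.18 (SE; unadjusted p 0.145 in edgeR). Ssrp1, a subunit of the FACT chaperone, had a log2 change of 0.15 ± 0.17 (SE). Rbbp4 and Rbbp7, histone-binding subunits shared by several chromatin complexes, had 0.07 ± 0.14 and 0.12 ± 0.13 (SE).

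Histone mRNA usually tracks DNA replication, so S phase genes were set beside it. Kits of the name in the labels select polyadenylated RNA, so the histone sum may miss the usual message without a tail. The 32 S phase genes summed to 2408, 1963 and 2265 CPM in knockout libraries, against 1881, 2183 and 1995 CPM in wild-type libraries. Of these, 30 had higher and 2 lower fitted values in knockout cells, with a median log2 change of 0.17. The calls were 0 of 32 in edgeR and in DESeq2 with the block, beside 0 and 374 of all genes tested (2.47%). Within pairs 1, 2 and 3 the medians were 0.35, -0.16 and 0.26, with pair 2 opposite in sign. Tyms, thymidylate synthase, had 43.3, 36.9 and 32.4 CPM in knockout libraries, against 30.5, 34.1 and 26.3 CPM in wild-type libraries, with overlap. Its log2 change was 0.31 ± 0.17 (SE; unadjusted p 0.108 in edgeR, or 0.0329 with the block). Pcna, the sliding clamp of DNA polymerases, had a log2 change of 0.07 ± 0.12, and Mcm6 and Mcm3 of the replicative helicase had 0.08 ± 0.26 and 0.20 ± 0.15 (SE).

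The 18 genes of G2 and mitosis summed to 1549, 1900 and 1499 CPM in knockout libraries, against 976, 2113 and 1515 CPM in wild-type libraries, and wild-type 1 was low. Their median log2 change was 0.12, and the medians within pairs were 0.66, -0.11 and -0.07. Both fits called 0 of the 18, beside 0 in edgeR and 374 in DESeq2 with the block of all genes tested (2.47%). Cenpe, a mitotic kinesin, had the smallest p, with a log2 change of 0.27 ± 0.28 (SE; unadjusted p 0.369 in edgeR). Top2a, Mki67 and Ube2c, the most abundant, had 0.03 ± 0.24, 0.13 ± 0.29 and 0.13 ± 0.38 (SE). The order of the libraries differed between histone and S phase sums: knockout 1 had the lowest histone sum of the 6 libraries and the highest S phase sum. Because it may miss the usual message without a poly(A) tail, the histone sum is no measure of replication here. Differences in cycling and in histone message per cell cannot be told apart in bulk RNA, where fewer cells of a type and less RNA per cell give the same value.

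**Figure D5:**
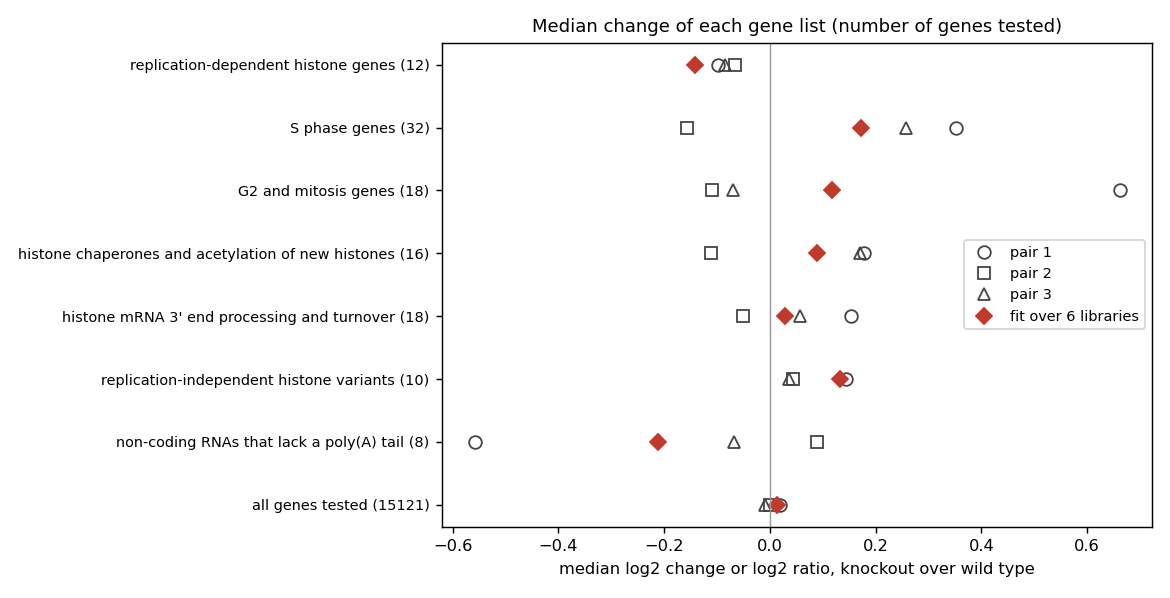
Median change of each gene list, with the number of genes tested in parentheses. The horizontal axis is the median log2 change of the fit over 6 libraries (filled diamonds) or the median log2 ratio of knockout over wild type within same-number pairs (open symbols). Histone genes lie at -0.14 with pairs at -0.10, -0.07 and -0.09; S phase genes lie at 0.17 with pair 2 at -0.16.

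Other RNAs with a form that ends without a poly(A) tail were listed for comparison, and 8 of the 18 were tested. They summed to 833, 1116 and 883 CPM in knockout libraries, against 952, 1016 and 1050 CPM in wild-type libraries. Most of this was Neat1 and Malat1, long nuclear RNAs, of which Neat1 also has a polyadenylated short form. The sum therefore need not be RNA without a tail, although the list is named below for RNAs that lack a poly(A) tail. Neat1 had a log2 change of -0.04 ± 0.21 and Malat1 of -0.23 ± 0.22 (SE). Snora73b, a small nucleolar RNA, had -0.19 ± 0.46 (SE). Scarna13, a small Cajal body RNA, had 0.371, 0.184 and 0.385 CPM in knockout libraries, against 0.904, 0.857 and 0.585 CPM in wild-type libraries. All knockout values were lower, with a log2 change of -1.31 ± 0.54 (SE; unadjusted p 0.0445, adjusted p 0.9999 in edgeR). Such a split was seen in 1 of the 8 genes, and in 474 of all genes tested (3.13%). The list had 0 calls in both fits, beside 0 in edgeR and 374 in DESeq2 with the block of all genes tested (2.47%). Its median log2 change was -0.21.

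The libraries differed in ways other than genotype. Il17a had 1.11, 0 and 0.0202 CPM in knockout libraries, against 161, 211 and 108 CPM in wild-type libraries, with an adjusted p of 0.9999 in edgeR and 4.6e-06 in DESeq2 with the block. T cell markers were present in every library, with sums of 4298 to 5302 CPM in the knockout, against 4258 to 5561 CPM in the wild type, and 2 of 11 were called in DESeq2 with the block. B cell markers summed to 805, 483 and 344 CPM in knockout libraries, against 377, 215 and 162 CPM in wild-type libraries, with 12 of 12 higher in knockout cells and none at 0. Of these 12, edgeR called 0 and DESeq2 with the block 6. All B cell sums were thus lower in the wild-type library of the same number. CD8 T cell markers summed to 1334, 1169 and 1440 CPM in knockout libraries, against 1747, 967 and 864 CPM in wild-type libraries. Cd8a itself, named outside the rule, had 425, 62.3 and 66.1 CPM in knockout libraries, against 257, 48.3 and 33.7 CPM in wild-type libraries. It was thus higher in knockout within each pair, with an adjusted p of 0.00073 in DESeq2 with the block and 0.9999 in edgeR. NK cell markers summed to 1025, 1151 and 1407 CPM in knockout libraries, against 1473, 969 and 833 CPM in wild-type libraries. The CD8 and NK lists share Gzma, so their sums are not independent. Myeloid markers summed to 294, 712 and 149 CPM in knockout libraries, against 228, 441 and 95.0 CPM in wild-type libraries. The sums of the CD8, NK and myeloid lists overlapped between the genotypes. DESeq2 with the block called 2 of 6 CD8, 2 of 8 NK and 4 of 11 myeloid genes, where edgeR called 0. Beside all the marker counts given here, DESeq2 with the block called 374 of all genes tested (2.47%). Xist, the X-inactivation RNA, had 2.58, 0 and 627 CPM in knockout libraries, against 567 to 664 CPM in wild-type libraries, and Ddx3y of the Y chromosome had 44.5, 38.0 and 0 CPM in knockout libraries, against 0 to 0.452 CPM in wild-type libraries. Knockout 1 and 2 thus differed from the other 4 libraries in both genes, which leaves pair 3 as the pair alike in them. Within pair 3 the log2 ratios were 0.24 for Hist1h1c, 0.14 for Hist3h2a, 0.26 for Hist1h2bc, -0.03 for Hist2h2be and -0.37 for Hist4h4. The part of other cells and of sex-linked differences in the histone values was not tested.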

How the data were processed

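Stranded mRNA libraries from 3 knockout and 3 wild-type cultures were analysed, with groups and replicate numbers taken from the labels. The authors deposited estimated counts per transcript, 93480 transcripts in all. The submitters' processing notes name Bowtie2 2.1.0, eXpress 1.3.1 and GRCm38. How they were set, and which annotation release was used, is not given in the sources used here. The GC fraction of each transcript was deposited too, per the file headers, and was not used. Only 0.02% of values above 0.5 were within 1e-04 of a whole number. The most common smallest value was 1.51 to 1.52 for transcripts of 400 to 700 nt and 1.06 to 1.07 above 5000 nt, so 1 read of a short transcript such as a histone mRNA carried more than 1 estimated count.

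Counts were summed per gene and rounded. Tests used edgeR 4.0.16 (quasi-likelihood, TMM, filterByExpr at its defaults, R 4.3.3) with Benjamini-Hochberg adjustment at 0.05. DESeq2 1.42.0, limma 3.58.1, other scalings, no filter and left-out libraries were alternatives. In DESeq2 with the block 294 genes had no adjusted p. Standard errors were the log2 change divided by the square root of F, and intervals used the fit's degrees of freedom. Ratios within pairs used CPM + 0.5. The fits were also run on simulated counts with known changes. For the fits without the block these counts held no replicate effect, unlike the data, and no result here rests on that run.

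Both genotypes have replicates 1 to 3. Deviations from the group means correlated at 0.602, 0.447 and 0.641 between libraries of the same number, each above the rule of 0.1. Same-number libraries were therefore treated as pairs in the log2 ratios within pairs and in the fits with the block. The main edgeR fit, which gave the log2 changes, standard errors and intervals, had no block and ignored the pairs. What a number stands for is not in the labels. The common dispersion was 0.169 without and 0.0601 with the block.

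GENCODE M21 on GRCm38 gave sequences for 71 of the 78 histone transcripts, by transcript ID. For 4 more, Hist2h2aa1 among them, the ID lay at another position than in the deposited table, and these were left out. In each histone class the 4 highest genes tested and that of smallest p are named, in each other list the 3 highest and that of smallest p, and Il17a; exceptions are stated. The histone genes and the lists were chosen with earlier results of these data known.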

Additional observations from a re-analysis of the deposited data

How the results depend on the processing

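Of the histone genes tested, 12 in the main fit and up to 56 without the filter, 0 were called in any of the 20 fits. Hist2h2aa1, Hist1h2bq, Hist1h2br and Hist2h4 were tested in only 17 of the 19 alternatives. The smallest adjusted p was 0.0523 for Hist2h2aa1 in DESeq2 with the replicate block without pair 2, within a range of 0.0523 to 1.0. The count of all genes called, 0 in edgeR with and without the replicate block, was 13 in DESeq2 without the block and 374 with it, and 0 to 264 with a library or pair left out. The median log2 change of the histone genes was -0.17 in edgeR with the block and in limma-voom, -0.18 in DESeq2 with the block, 0.33 without the low-count filter, which admits more genes, and -0.44 to 0.17 with a library or pair left out. It was 0.17 over 14 genes without knockout 1 and 0.0048 over 15 genes without wild-type 2, against 12 genes in the main fit. The filter was rerun in each refit. The direction therefore changed with the libraries used and the genes that passed, which these medians do not separate. With a library or pair left out, the medians were -0.27 to 0.25 for H1, -4.86 to -0.58 for H2A, -0.25 to 0.23 for H2B, -0.67 to 0.19 for H4, -0.043 to 0.24 for the variants, -0.028 to 0.10 for 3′ end processing, 0.034 to 0.35 for S phase, 0.038 to 0.17 for chaperones, -0.11 to 0.41 for G2 and mitosis and -0.43 to 0.06 for RNAs that lack a poly(A) tail, and H2A was 0.36 without the filter. The RNAs that lack a poly(A) tail had 0 to 1 calls over these refits. In the same refits the sign turned for Hist1h1c (-0.27 to 0.25), Hist1h2bc (-0.59 to 0.23), Hist1h2bq (-2.47 to 1.73), Hist1h2br (-2.89 to 0.29), Hist2h2be (-0.10 to 0.29), Hist3h2ba (-0.85 to 1.25), Hist4h4 (-0.45 to 0.15) and Hist2h4 (-0.81 to 1.53), and for Hist2h4 also in DESeq2 without the block (-0.012), with RLE scaling (-0.012) and without the filter (-0.0017). The cause was not tested. The block changed no call among the histone genes and the lists set beside them, but in DESeq2 it did so for the marker genes of other cells, of which 6 B cell markers were called with it and 1 without. A floor of 3 reads means that levels under 0.0634 CPM, or 0.0963 CPM for transcripts of 400 to 700 nt, cannot be told from 0. These limits use library totals before the TMM adjustment, after which 3 counts were 0.0676 CPM in wild-type 2.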
